A study of Mus musculus with 9 samples.

Results

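The genes described here encode the enzymes that finish cell-surface and matrix glycans, namely sialyltransferases, polypeptide GalNAc-transferases, lactosamine glycosyltransferases, fucosyltransferases and carbohydrate sulfotransferases. They were chosen by name. Members were all features of the count table whose symbol began with St3gal, St6gal, St8sia, Galnt, Fut, B3gnt, B4galt, Hs3st, Hs6st, Ndst or Chst, followed by digits or lower-case letters. The rule found 93 of the 41214 features, of which 91 were protein-coding genes and 2, Galnt6os and St8sia3os, were antisense RNAs named after a host gene. The coding members fell into 20 sialylation, 19 O-glycan initiation, 16 lactosamine, 8 fucosylation, 14 heparan sulfate and 14 other sulfotransferase genes. Levels were measured by RNA-seq in endothelial cells of mouse fetal hearts at E17.5, in 9 libraries, 3 for each of 3 sorted populations. All embryos carried the R26(tom/+) reporter allele with the transgenes Nes-CreER(Tg/0) and Nes-Gfp(Tg/0). Nestin regulatory sequence thus drove both the green reporter and the recombinase that switched on Tomato, and all had received 0.1 ug of tamoxifen at E15.5. Ventricles without atria and aortic region were sorted for viable Ter119-, CD45-, CD31+ and GFP+ cells. The arterial population (intramyocardial arteries and capillaries) was also Emcn-low and Tomato+. The venous population (subepicardial veins) was Emcn-low, Tomato- and GFP-low. The endocardial gate as written names no endomucin or Tomato condition, so other endothelial cells can lie in it. How many embryos made up a library is not stated, nor whether replicates came from separate animals, so the p-values describe library-to-library spread that could be technical alone.

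Glycans are built in the Golgi by transferases that each add a sugar or a sulfate in a set linkage, and families of near-related enzymes often share a reaction but differ in acceptor and tissue. Sialic acid caps N-glycans, mucin-type O-glycans and gangliosides of the endothelial surface, where it carries negative charge and is read by lectins, and sulfated, sialylated and fucosylated O-glycans serve as ligands of selectins on leukocytes. Heparan sulfate, polymerised on proteoglycan cores and then sulfated at several positions, binds VEGF, FGF, BMP and antithrombin, and its sulfation pattern sets which of these bind.

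RefSeq (GRCm38.p6) gave a promoter window for 69 of the 91 coding members. The 250 bases upstream of the annotated start are shown for 3 genes with a single RefSeq start and a large difference between endocardial and coronary libraries, St8sia4 (chr1:95667595-95667844, minus strand, upstream of a RefSeq start that matches no GENCODE transcript start), St8sia1 (chr6:142964453-142964702, minus strand) and Hs3st3b1 (chr11:63922285-63922534, minus strand, of which 6 bases lie in an annotated exon). Capitals mark GGAA or its complement TTCC, the core letters of sites of ETS factors, a family with many members in endothelium.
St8sia4: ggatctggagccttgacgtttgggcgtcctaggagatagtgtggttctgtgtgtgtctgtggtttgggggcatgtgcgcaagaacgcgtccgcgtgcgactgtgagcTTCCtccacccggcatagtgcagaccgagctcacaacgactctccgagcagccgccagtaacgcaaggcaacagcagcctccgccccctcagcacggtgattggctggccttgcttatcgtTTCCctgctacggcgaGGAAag
St8sia1: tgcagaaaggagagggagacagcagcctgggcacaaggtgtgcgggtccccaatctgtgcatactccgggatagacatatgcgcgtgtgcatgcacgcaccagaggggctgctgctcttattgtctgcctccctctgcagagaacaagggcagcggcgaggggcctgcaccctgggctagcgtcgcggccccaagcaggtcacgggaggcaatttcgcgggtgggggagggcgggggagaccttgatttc
Hs3st3b1: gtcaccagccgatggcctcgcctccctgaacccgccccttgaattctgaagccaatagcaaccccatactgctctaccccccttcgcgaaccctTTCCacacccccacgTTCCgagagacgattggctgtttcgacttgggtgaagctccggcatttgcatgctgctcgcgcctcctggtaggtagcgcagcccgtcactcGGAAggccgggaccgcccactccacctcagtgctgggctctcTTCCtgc
GGAA was found 3 times upstream of St8sia4, 0 times upstream of St8sia1 and 4 times upstream of Hs3st3b1, over both strands, and 93.4% of 32817 windows of this length held it at least once. The GC box GGGCGG occurred 1, 1 and 2 times on either strand, and 32.7% of windows held it. The TATA box letters TATAAA were found in none of these 3 windows, against 12.4% of all windows. G and C made up 60.4%, 63.6% and 62.4% of the bases, against a median of 52.4%. These are matches of letters and not measured sites.

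Libraries held 12750553 to 19474419 counts. Summed marker levels followed the labels, while some single markers did not. The summed level of 4 endocardial markers was 3490 to 4150 CPM (the count scaled to a common library size, with TMM) in endocardial libraries and 77.0 to 206 in the others. The sum of 4 arterial markers was 523 to 608 CPM in arterial libraries and 225 to 318 in the others, and the sum of 3 venous markers 437 to 609 in venous libraries and 176 to 317 in the others. The venous sum was carried by Aplnr, with a mean of 384 CPM in venous, 155 in arterial and 43.3 in endocardial libraries. Nr2f2 was lower in venous than in endocardial libraries (54.8 against 123 CPM), and Ephb4 was not called in any comparison. Of the arterial markers, Gja4 had a mean of 55.4 CPM in arterial libraries and 49.2 in endocardial ones, against 7.69 in venous ones. Levels of markers of other cell types differed between the populations, and which cells they came from was not tested. The sum of 7 fibroblast markers was 99.9 to 116 CPM in arterial, 1380 to 1610 in venous and 1610 to 1950 in endocardial libraries, with counts for all 7 in each population. The 4 lymphatic markers, Prox1 and Lyve1 among them, summed to 78.1 to 109, 118 to 198 and 517 to 610 CPM, and 5 erythroid and platelet markers, mostly the beta-globin gene Hbb-bs, to 368 to 867, 149 to 280 and 57.3 to 146 CPM in the same order. The 5 cardiomyocyte markers summed to 125 to 196, 261 to 378 and 327 to 384 CPM, and the 4 epicardial ones, mostly Wt1, to 180 to 208, 146 to 169 and 23.8 to 29.3 CPM. The 4 endothelial markers summed to 4140 to 5960, 4030 to 5290 and 2710 to 3620 CPM. Of these, Pecam1, Cdh5 and Kdr had their lowest mean in endocardial libraries. Tek had its highest there, at 948 CPM against 390 in arterial and 536 in venous libraries. The 5 mural markers summed to 74.3 to 126 CPM in arterial, 47 to 59.9 in venous and 43.6 to 72.9 in endocardial libraries. Among them Rgs5 had means of 71.3, 29.3 and 4.17 CPM in that order, and Pdgfrb 14.8, 9.4 and 40.8. Leukocyte markers summed to between 3.26 and 8.86 CPM in all libraries. Replicate 1 had the most features above 0 in each population, with 21221 against 19610 and 20359 in arterial libraries. Venous libraries had 19755 against 19299 and 18462. The gap was widest in endocardial libraries, with 21101 against 17337 and 17130. Calls that end or begin without endocardial replicate 1 are named. In these bulk samples, fewer cells of a type and less RNA per cell cannot be told apart.

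The endocardium was set against the coronary vessels, and the arterial against the venous population. Endocardial libraries had more St6gal1, St8sia1, Hs3st3b1, Hs3st4, B4galt6 and B4galt5 RNA, while coronary libraries had more St8sia4, St8sia6, Chst1, Chst11, Chst15, Galnt18 and Galnt7. Between arterial and venous libraries only St8sia6 and Hs6st2 were called. Of the 93 members, 73 passed the filter on low counts and were tested. Against the mean of arterial and venous libraries on the log scale, 12 were higher and 9 lower in endocardial libraries (28.8% of those tested), where 13.9% of all 17103 genes tested (6.91% higher, 7.00% lower) were called at an adjusted p under 0.05 (edgeR, quasi-likelihood test, Benjamini-Hochberg). The groups did not overlap for 21 of the 73, against 17.6% of all genes. Between arterial and venous libraries, 1 member was higher and 1 lower (2.74%), against 1.07% of all genes (0.310% higher, 0.760% lower), and 13 of the 73 did not overlap, against 17.3% of all genes. Arterial libraries had 8 members higher and 11 lower than endocardial ones (26.0%, against 11.7% of all genes, 5.92% higher and 5.75% lower). Venous libraries had 9 higher and 6 lower than endocardial ones (20.5%, against 10.2%, 5.81% higher and 4.44% lower). The groups did not overlap for 32 members in the first of these comparisons and 28 in the second, against 25.6% and 28.2% of all genes. These comparisons share libraries. The median absolute log2 fold change of the members was 0.84 between endocardial and coronary libraries and 0.34 between arterial and venous ones, against 0.52 and 0.36 over all genes tested.

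**Figure D1:**
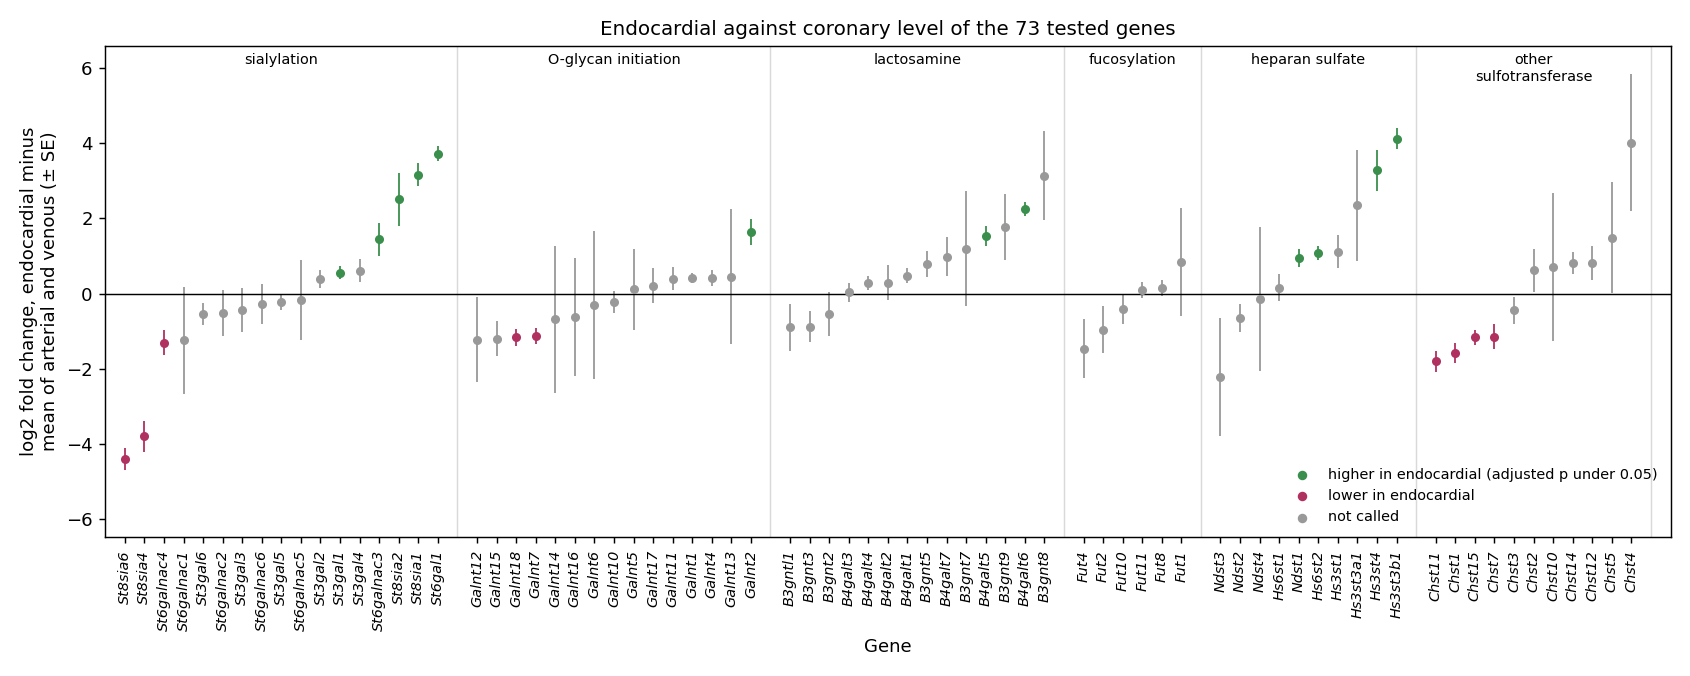
Log2 fold change with its SE (vertical axis) of each tested member (horizontal axis, grouped by class) between endocardial libraries and the mean of arterial and venous libraries. The 12 members higher in endocardial libraries (green) and the 9 lower (red) include both signs in the sialylation class, only higher ones in the heparan sulfate class and only lower ones among the other sulfotransferases, and members not called are grey. The values of Chst4 and Chst5, which had no count in venous libraries, depend on the prior count of the fit.

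Among sialylation genes, 17 of 20 were tested, 5 were higher and 3 lower in endocardial than in coronary libraries, and 9 were not called. The share called was 47.1%, against 13.9% of all genes. Their median log2 fold change was -0.22, against 0.08 over all genes. The largest rise was that of St6gal1 (chromosome 16, 23224740 to 23360350, plus strand, GRCm38), whose enzyme caps galactose at the ends of N-glycans with sialic acid. It stood at 166, 173 and 180 CPM in endocardial replicates 1 to 3, at 15.4, 11.2 and 6.4 in arterial and at 17.8, 14.0 and 14.4 in venous ones. Every endocardial library thus lay far above every coronary one, and the coronary populations overlapped. The difference was 13.3-fold (log2 3.73 ± 0.21 SE, adjusted p = 2.57e-09). Its relative St6gal2 had at most 0.828 CPM in any library and was not tested.

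The St8sia genes, whose enzymes add a further sialic acid to a sialylated glycan, went in both directions. St8sia4 (chromosome 1, 95587682 to 95667571, minus strand) encodes a polysialyltransferase, which builds the long sialic acid chains known from the neural adhesion molecule NCAM. It had 243, 211 and 234 CPM in arterial, 190, 176 and 195 in venous, and 27.2, 8.14 and 9.03 in endocardial libraries. Endocardial replicate 1 was the highest of its group and still far below all coronary libraries. The difference was 14.0-fold (log2 -3.81 ± 0.42, adjusted p = 0.000248), and without that library the log2 fold change was -4.59. The other polysialyltransferase gene, St8sia2 (chromosome 7, 73939119 to 74013690, minus strand), was higher in endocardial libraries, at 16.6, 6.77 and 7.60 CPM against 4.42, 0.403 and 0.221 in arterial and 2.01, 1.91 and 1.95 in venous ones. Its 3 endocardial libraries lay above all others, with a log2 fold change of 2.51 ± 0.71 (adjusted p = 0.0259). That value was 3.69 without arterial replicate 1, the highest of its group. The call ended without endocardial replicate 1 (log2 1.98, adjusted p = 0.144), venous replicate 1 (0.053) or venous replicate 3 (0.0581). Against arterial libraries alone St8sia2 was not called (adjusted p = 0.0806), but passed with the replicate block (0.0135), DESeq2 (0.0233) and without the filter on low counts (0.0134). Against venous ones it was not called either (0.117), and passed with DESeq2 (0.0447) and without the filter (0.0356).

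St8sia1 (chromosome 6, 142821545 to 142964452, minus strand) encodes GD3 synthase, which makes the disialylated ganglioside GD3 from GM3. Endocardial libraries held 27.1, 33.0 and 32.0 CPM, arterial ones 3.32, 3.40 and 5.37 and venous ones 2.31, 4.32 and 2.10. The endocardial values were again clear of the rest (8.97-fold, log2 3.17 ± 0.31, adjusted p = 1.87e-06). St8sia6 (chromosome 2, 13651021 to 13794064, minus strand), whose enzyme makes disialic acid on O-glycans, had a level of its own in each population. Arterial libraries held 116, 128 and 121 CPM, venous ones 24.4, 35.2 and 29.2 and endocardial ones 3.90, 3.03 and 1.49. No library of one population overlapped with another, and the order was arterial, venous, endocardial in each replicate number. The arterial level was 4.11-fold the venous one (log2 2.04 ± 0.27, adjusted p = 0.000548) and 43.4-fold the endocardial one (adjusted p = 5.64e-09), and the venous level was 10.6-fold the endocardial one (adjusted p = 9.29e-07). The epicardial marker sum ran in the same order, mostly through Wt1, with means of 189, 147 and 20 CPM. Tbx18 was instead highest in venous libraries, and Upk3b and Msln were highest in endocardial ones. The erythroid and platelet sum also ran in the order of St8sia6, mostly through Hbb-bs (means of 546, 210 and 76.9 CPM), while Pf4 and Itga2b were highest in endocardial libraries. Among mural markers Rgs5 ran in that order too (71.3, 29.3 and 4.17 CPM), while Pdgfrb was highest in endocardial libraries. Whether other cells had a part in the St8sia6 values was not tested. St8sia3 and St8sia5 did not pass the filter.

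**Figure D2:**
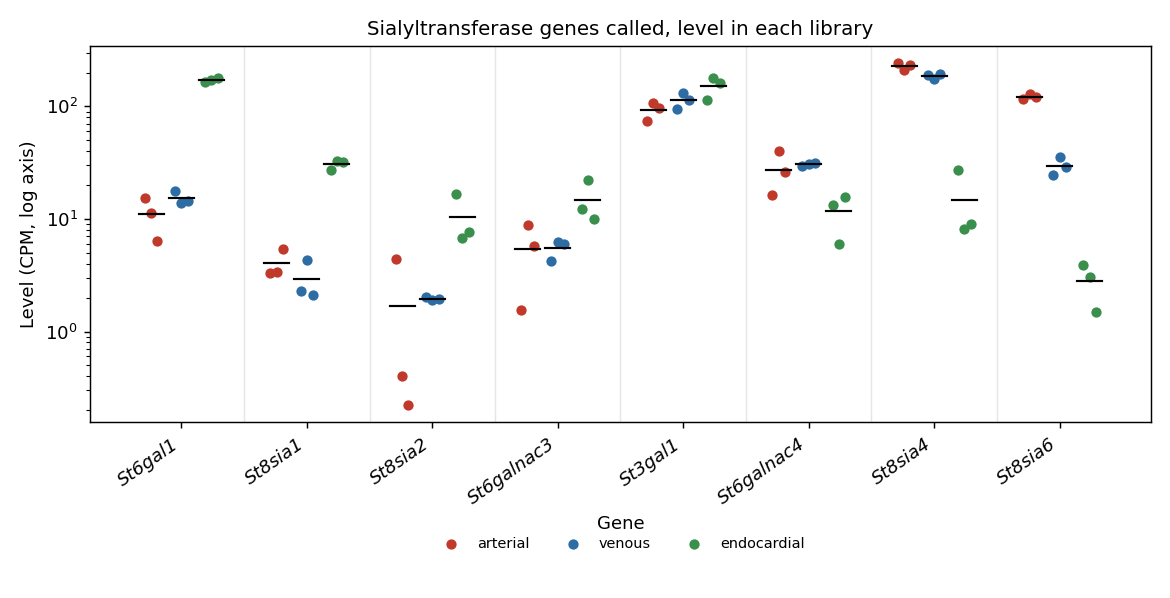
Level of the 8 called sialyltransferase genes in CPM on a log axis (vertical), with 1 point for each library and a bar at the mean of each population. St6gal1 lies at 166 CPM or more in endocardial and at 17.8 CPM or less in coronary libraries, St8sia4 shows the opposite order, and St8sia6 separates all 3 populations.

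The make-up of the St8sia family therefore differed, compared here per kb of annotated exon. In endocardial libraries St8sia1 took 54.1% ± 15.1 (SD, n = 3) and St8sia2 29.0% ± 8.72 of the summed family level. St8sia4 and St8sia6 took 40.3% ± 2.20 and 56.1% ± 3.73 in arterial, and 67.2% ± 4.75 and 27.8% ± 4.26 in venous libraries. The order of these 2 genes in arterial libraries rests on the length used, since with the longest transcript of each gene they took 57.2% and 40.1%. The order in venous libraries was the same with either length. The summed level of the family was 28.3 CPM per kb in arterial, 13.9 in venous and 6.33 in endocardial samples.

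The remaining called sialyltransferases act on O-glycans and gangliosides. St3gal1, which caps the core disaccharide of mucin-type O-glycans, had 22.1 CPM per kb in endocardial, 16.6 in venous and 13.6 in arterial libraries. It was the highest sialyltransferase per kb in venous libraries, while St8sia6 (15.9) stood above it in arterial and St6gal1 (35.2) in endocardial ones, and with the longest transcript as length St8sia4 led in arterial libraries instead of St8sia6. It was 1.47-fold higher in endocardial libraries (151 ± 32.7 CPM, SD, n = 3, against 93.0 ± 17.4 in arterial and 114 ± 18.9 in venous ones, adjusted p = 0.0464), and endocardial replicate 1, at 115 CPM, lay inside the venous range. The gene lost its call on leaving out arterial replicates 1 (0.0827) or 3 (0.0804), venous replicates 1 (0.113) or 3 (0.0885), or endocardial replicates 2 (0.307) or 3 (0.176). St6galnac4, whose product adds a second sialic acid to that sialylated core, was lower in endocardial libraries, at 13.4, 5.98 and 15.6 CPM against 16.4 to 39.9 in coronary ones. The log2 fold change was -1.31 ± 0.33 (adjusted p = 0.0124), and the call ended without endocardial replicate 2 (0.0654). Against arterial libraries alone its adjusted p was 0.037, and 0.0504 with the replicate block. St6galnac3, which acts on gangliosides and O-glycans, had 14.8 ± 6.53 CPM in endocardial, 5.40 ± 3.70 in arterial and 5.52 ± 1.10 in venous libraries (log2 1.44 ± 0.45, adjusted p = 0.0435). Its call ended without arterial replicate 3 (0.0705), venous replicates 1 (0.0829), 2 (0.0552) or 3 (0.0694), or endocardial replicate 2 (0.323). Against arterial libraries alone it was not called (0.116), and it passed with the replicate block (0.0414).

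Members not called included the GM3 synthase gene St3gal5, with 11.4, 11.3 and 9.78 CPM per kb in arterial, venous and endocardial libraries (adjusted p = 0.629 for endocardial against coronary). St3gal2, which acts on O-glycans and gangliosides, had 16 to 33.9 CPM over all libraries and was not called either (adjusted p = 0.392). St3gal6, which helps to make selectin ligands, had 95.7, 50.3 and 45.7 CPM in arterial, 59.7, 48.7 and 62.9 in venous and 62.6, 28.3 and 33.8 in endocardial libraries. These values overlapped (adjusted p = 0.289), although the gene passed as lower in endocardial libraries without endocardial replicate 1 (0.0202) and with the replicate block (0.0484). St3gal6 shares 1603 exonic bases with Dcbld2 on the other strand, and the strand setting of the counting is not given. St3gal3 had 1.77, 1.56 and 4.12 CPM in arterial and 6.39, 9.63 and 4.40 in venous libraries, without overlap but not called (adjusted p = 0.579). St3gal4 did not overlap between arterial (6.41 to 8.82 CPM) and endocardial libraries (11 to 18.3 CPM) and was not called (adjusted p = 0.227).

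O-glycan initiation is carried out by the Galnt enzymes, which attach GalNAc to serine or threonine. Of the 19 genes 15 were tested, and 1 was higher, 2 were lower and 12 were not called between endocardial and coronary libraries (20%, against 13.9% of all genes, with a median log2 fold change of -0.22). Galnt18 (chromosome 7, 111471661 to 111779977, minus strand) had 46.7, 79.6 and 71.4 CPM in arterial, 44.7, 70.1 and 61.3 in venous and 25.1, 33.0 and 24.6 in endocardial libraries. Galnt7 (chromosome 8, 57523828 to 57653032, minus strand), which prefers peptides that already carry GalNAc, had 68.2, 95.1 and 51.0, 52.2, 77.2 and 74.1, and 30.0, 36.9 and 28.7 CPM in the same order. For both genes all endocardial libraries were below all coronary ones. The log2 fold changes were -1.17 ± 0.22 and -1.13 ± 0.22, with adjusted p of 0.00139 and 0.0018. Galnt2, one of the broadly acting members, was higher in endocardial libraries, at 40.6, 30.1 and 13.4 CPM against 4.94 to 14.7 in coronary ones, so that endocardial replicate 3 fell inside the coronary range (log2 1.64 ± 0.34, adjusted p = 0.00292). Its call against venous libraries alone (adjusted p = 0.0454) ended without venous replicates 2 (0.142) or 3 (0.195) or endocardial replicates 1 (0.184) or 2 (0.117). Of the 4282 exonic bases of Galnt2, 3854 are shared with the same-strand locus Gm20388, so that its counts may be split and are uncertain.

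Galnt1 had the highest mean level per kb of this class in each population, though Galnt18 was above it in arterial replicates 2 and 3. It stood at 25.6 CPM per kb in arterial, 30.2 in venous and 36.8 in endocardial samples. Arterial libraries held 148, 151 and 125 CPM, venous ones 163, 155 and 182 and endocardial ones 225, 182 and 203. The endocardial libraries stood above all coronary ones by a narrow margin, and the difference was not called (log2 0.41 ± 0.14, adjusted p = 0.0625). It passed with RLE scaling (0.0461), upper quartile scaling (0.0483) and DESeq2 (0.0204). Against arterial libraries alone it was called (log2 -0.53 ± 0.16 for arterial minus endocardial, adjusted p = 0.0446), and that call ended without any 1 of the 9 libraries (0.0692 to 0.193) and without the filter on low counts (0.109). Galnt4, Galnt10 and Galnt11 were detected in every library, at 21.4 to 53.3, 8.14 to 18.1 and 10 to 25.9 CPM, and were not called (adjusted p = 0.281, 0.746 and 0.48 for endocardial against coronary). Galnt15 had 7.93 to 10.7 CPM in venous and 2.16 to 4.81 in endocardial libraries, without overlap and not called (adjusted p = 0.111). Galnt9 had 1.11, 0.0576 and 5.22 CPM in arterial libraries and no count in the other 6. It did not pass the filter, and DESeq2 called it between arterial and endocardial libraries.

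By share of the summed Galnt level per kb, Galnt1 took 31.4% ± 5.16 in arterial, 36.3% ± 3.76 in venous and 48.3% ± 3.31 in endocardial samples (SD, n = 3). Galnt18 took 30.8% ± 4.78, 27.1% ± 4.07 and 14.1% ± 3.02 in the same order. The sum itself was 82.3, 83.6 and 76.3 CPM per kb.

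**Figure D3:**
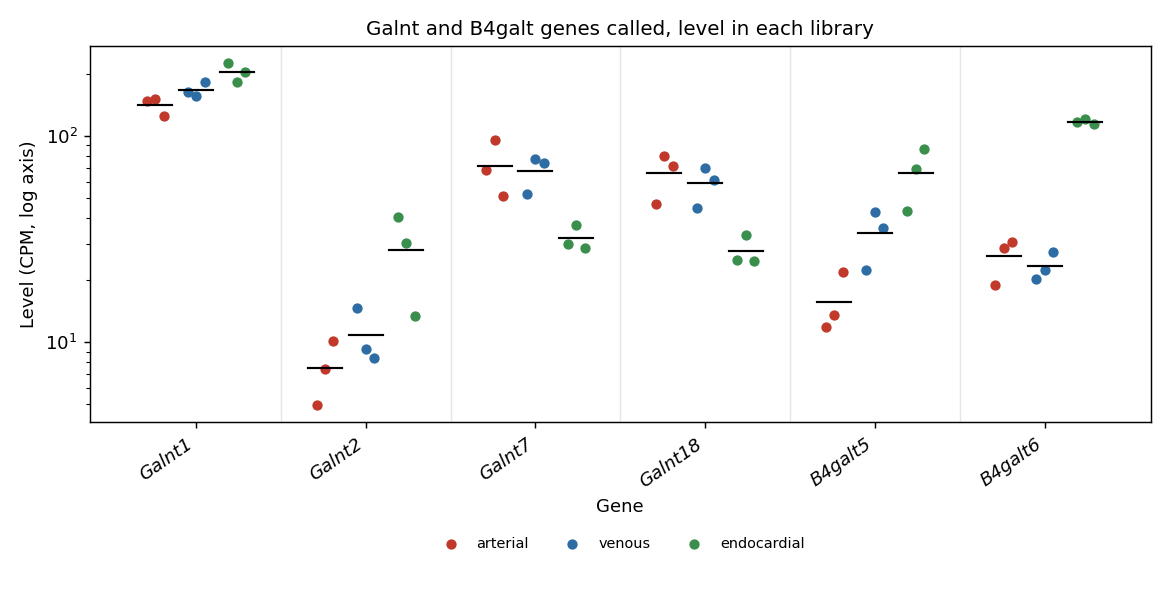
Level in CPM on a log axis (vertical) of 4 Galnt genes and of B4galt5 and B4galt6 in each library, with a bar at the mean of each population. Galnt7 and Galnt18 lie lower in all endocardial libraries than in all coronary ones, and B4galt6 lies at 114 to 120 CPM in endocardial and at 19.0 to 30.4 CPM in coronary libraries.

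The lactosamine class holds the B4galt galactosyltransferases and the B3gnt enzymes, which alternate to extend N-acetyllactosamine chains, although some make glycolipids. Of its 16 genes 14 were tested, and 2 were higher and 0 lower in endocardial libraries. That share, 14.3%, was near the 13.9% of all genes, and the median log2 fold change was 0.64. Both called genes encode lactosylceramide synthases, the enzymes that make the precursor of most gangliosides. B4galt6 had 116, 120 and 114 CPM in endocardial, 19.0, 28.6 and 30.4 in arterial and 20.2, 22.3 and 27.3 in venous libraries. All 3 endocardial libraries were far above the coronary ones, which overlapped with each other (4.74-fold, log2 2.25 ± 0.18, adjusted p = 1.51e-07).

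B4galt5 (chromosome 2, 167298444 to 167349183, minus strand) had 43.1, 69.0 and 86.5 CPM in endocardial, 22.4, 42.7 and 35.8 in venous and 11.8, 13.5 and 21.8 in arterial libraries. No population overlapped with another, and endocardial libraries were 2.88-fold above the coronary mean (log2 1.53 ± 0.26, adjusted p = 0.000594). Arterial and venous libraries were not called different (log2 -1.10, adjusted p = 0.174) but were with the replicate block (0.0177) and without the filter on low counts (0.00296). Venous against endocardial was likewise not called (log2 -0.98, adjusted p = 0.0615), and passed with the replicate block (0.00784), upper quartile scaling (0.0494), DESeq2 (0.036), no filter (0.00679), without venous replicate 2 (0.0465) or without endocardial replicate 1 (0.0118). The fibroblast, cardiomyocyte and lymphatic marker sums were also lowest in arterial libraries, and their part in the B4galt5 values was not tested.

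The B4galt genes highest per kb beside these were B4galt4, with 18.5, 17.2 and 21.6 CPM per kb in arterial, venous and endocardial libraries (adjusted p = 0.424 for endocardial against coronary), and B4galt1, the main galactosyltransferase of N-glycans, with 10.1, 12.7 and 15.8. B4galt1 was not called (log2 0.48, adjusted p = 0.154), and passed without endocardial replicate 1 (log2 0.66, adjusted p = 0.0394). B4galt6 took 25.5% ± 5.19 of the summed B4galt level per kb in endocardial libraries, against 10.2% ± 1.13 in arterial and 8.47% ± 1.33 in venous ones. The sum was 80.8 CPM per kb in endocardial, 43.5 in arterial and 47.7 in venous libraries.

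No B3gnt gene was called. B3gnt3, which extends core O-glycans toward selectin ligands, was the highest of them per kb, at 12.4, 15.2 and 7.45 CPM per kb in arterial, venous and endocardial libraries. Its endocardial values were 7.10, 32.2 and 29.0 CPM, of which replicate 1 stood far below the others, against 31.6 to 59.3 CPM in coronary libraries. The difference was not called (log2 -0.88, adjusted p = 0.227) and passed without the filter on low counts (0.00332). Without endocardial replicate 1 the log2 fold change was -0.46 (adjusted p = 0.266). B3gnt8 had 1.53, 6.56 and 3.60 CPM in endocardial and 0 to 2.35 in coronary libraries. It was not called (log2 3.14, adjusted p = 0.0966), and passed with DESeq2 (0.0319). Its log2 fold change was 4.13 without venous replicate 2 and 2.52 without endocardial replicate 2. B3gnt9 had 0.115 to 0.958 CPM in arterial and 2.38 to 5.55 in endocardial libraries and was not called (log2 -2.89, adjusted p = 0.133), but passed with DESeq2 (0.0253). The log2 value was -3.87 without arterial replicate 1. B3gnt2, a main poly-N-acetyllactosamine enzyme, shares exonic bases with the same-strand locus Gm28048, so that its low values (1.18 to 11.5 CPM) are uncertain.

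Fucosylation genes showed no called difference in any of the 4 comparisons. Of 8 genes 6 were tested, and their median log2 fold change was -0.16 between endocardial and coronary libraries. Of all genes, 13.9% were called in that comparison and 1.07% between arterial and venous libraries. With 6 genes, 0 calls is near these shares. Fut11 had 25.4, 21.7 and 32.9 CPM in arterial, 38.9, 35.1 and 38.2 in venous and 28.8, 27.6 and 44.5 in endocardial libraries. Fut8, the only enzyme that adds the core fucose of N-glycans, had 31.7, 36.3 and 21.0, 34.3, 28.1 and 34.7, and 36.4, 32.1 and 34.9 CPM. Both genes overlapped between endocardial and coronary libraries (adjusted p = 0.87 and 0.742). Fut11 was highest per kb of exon, with 6.27, 8.80 and 7.91 CPM per kb, before Fut8 with 3.75, 4.09 and 4.36 and Fut10 with 1.45, 1.79 and 1.22, and Fut8 stood first when the longest transcript gave the length.

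Fut4 and Fut7 make the fucosylated selectin ligands of leukocytes. Fut7 was near the floor, at no more than 0.917 CPM in any library, and was not tested. Fut4 had 4.45 to 7.83 CPM in venous and 1.29 to 1.99 in endocardial libraries, with no overlap but no call (log2 1.95, adjusted p = 0.204). Its arterial values of 5.75, 3.74 and 0.221 CPM reached from below all endocardial values into the venous range.

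Every heparan sulfate sulfotransferase gene called between endocardial and coronary libraries was higher in endocardial ones. Of 14 genes 10 were tested, 4 were higher and 0 lower than in coronary libraries (40%, against 13.9% of all genes), and the median log2 fold change was 1.02. Hs3st3b1 (chromosome 11, 63885792 to 63922290, minus strand), which adds a rare sulfate at the third hydroxyl of glucosamine, had 54.4, 119 and 63.0 CPM in endocardial, 5.45, 2.59 and 4.41 in arterial and 6.45, 4.63 and 3.69 in venous libraries. The groups were far apart (log2 4.13 ± 0.29, adjusted p = 4.68e-08), with no difference called between arterial and venous libraries (log2 -0.25, adjusted p = 0.943). Hs3st4 (chromosome 7, 123982869 to 124398989, plus strand), of the same enzyme family, had 24.6, 11.2 and 10.4 CPM in endocardial libraries, 1.40, 0.346 and 2.87 in arterial and 1.95, 1.48 and 1.43 in venous ones. It too was clear of overlap (9.73-fold, log2 3.28 ± 0.54, adjusted p = 0.000352). Against arterial libraries alone the log2 difference of -3.33 became -4.15 without arterial replicate 3.

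Hs3st1, whose product makes the antithrombin-binding site of anticoagulant heparan sulfate, was not called. It had 5.31, 8.64 and 6.03 CPM in arterial, 5.86, 4.38 and 5.07 in venous and 22.5, 11.2 and 4.07 in endocardial libraries. The endocardial libraries spanned from below all coronary values to above them, and the log2 fold change of 1.11 (adjusted p = 0.125) was 0.38 without endocardial replicate 1 and passed without endocardial replicate 3 (log2 1.52, adjusted p = 0.0193). Hs3st3a1, Hs3st2, Hs3st5 and Hs3st6 had at most 2.16 CPM in any library. Of the summed Hs3st level per kb, Hs3st3b1 took 60.2% ± 19.3 in endocardial, 19.5% ± 7.84 in arterial and 25.6% ± 3.98 in venous libraries. Hs3st1 took 19.8% ± 13, 67.4% ± 15.1 and 59.1% ± 4.05. The sum was 27 CPM per kb in endocardial, 4.41 in arterial and 3.89 in venous libraries.

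**Figure D4:**
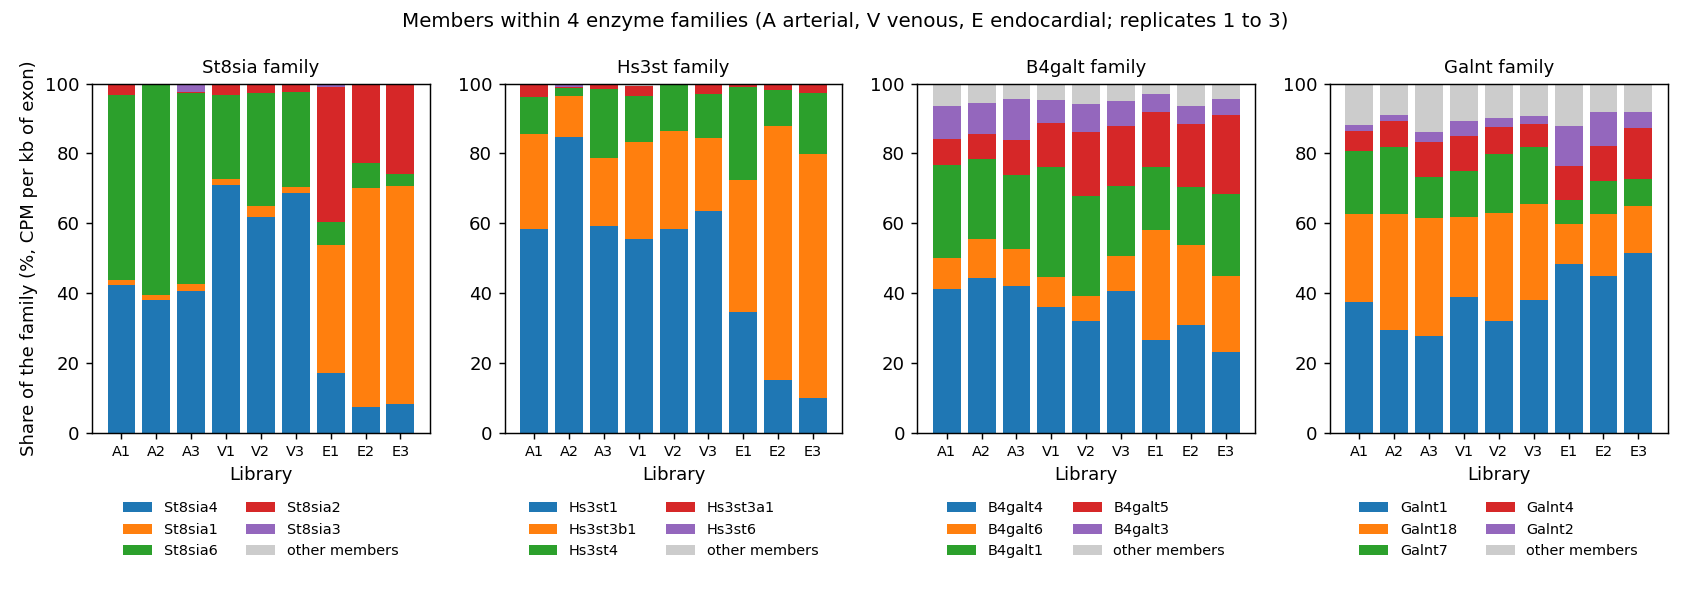
Share in percent (vertical axis) of each gene in the summed level per kb of exon of the St8sia, Hs3st, B4galt and Galnt families, with 1 stacked bar for each library. St8sia1 and St8sia2 take most of the St8sia bars in endocardial libraries and St8sia4 and St8sia6 most of them in coronary ones, while Hs3st3b1 has a larger and Hs3st1 a smaller mean share in endocardial than in coronary libraries.

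Hs6st2 (chromosome X, 51387212 to 51681856, minus strand), which adds sulfate to the sixth carbon of glucosamine, was the second member called between arterial and venous libraries. It had 17.0, 13.7 and 16.2 CPM in arterial, 37.5, 28.0 and 36.7 in venous and 53.5, 47.5 and 46.8 in endocardial libraries. The 3 populations did not overlap, in the order arterial, venous, endocardial. The arterial level was 2.18-fold below the venous one (log2 -1.13 ± 0.23, adjusted p = 0.0203) and below the endocardial one by more (log2 -1.66 ± 0.23, adjusted p = 8.67e-05). The venous and endocardial levels were not called different (log2 -0.53, adjusted p = 0.169). The call between arterial and venous libraries was lost when arterial replicate 2 (0.0862), arterial replicate 3 (0.052), venous replicate 1 (0.122) or venous replicate 3 (0.113) was left out. The fibroblast, cardiomyocyte and lymphatic marker sums were also lowest in arterial libraries, and their part in the Hs6st2 values was not tested. Hs6st1, of the same reaction, overlapped in all comparisons (9.46 to 37.5 CPM) and took 67.5% ± 3.56 of the Hs6st level per kb in arterial, 42.2% ± 16.7 in venous and 39.9% ± 14.3 in endocardial samples.

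Ndst1, whose enzyme opens the modification of heparan sulfate by replacing acetyl groups with sulfate, had 60.0, 120 and 108 CPM in endocardial, 28.5, 49.5 and 52.1 in arterial and 64.8, 59.8 and 46.7 in venous libraries. Endocardial replicate 1 lay inside the venous range (log2 0.95 ± 0.23, adjusted p = 0.0106), and the call ended without endocardial replicates 2 (0.0974) or 3 (0.0631). Ndst2 was not called (adjusted p = 0.341), and Ndst1 took 81.9% of the Ndst level per kb in endocardial, 57.3% in arterial and 60.5% in venous libraries. For Hs3st3b1, Hs3st4, St6gal1, St8sia1 and B4galt6 the arterial and venous values overlapped. The lymphatic and fibroblast marker sums were both highest in endocardial libraries, and their part in these values was not tested. Single markers were split. Postn, Pdgfra, Dcn, Lum, Prox1 and Lyve1 had their highest mean in endocardial libraries. Venous means exceeded endocardial ones for Col1a1 (149 against 26.7 CPM), Col1a2 (155 against 126), Col3a1 (526 against 289) and Flt4 (118 against 86.4).

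**Figure D5:**
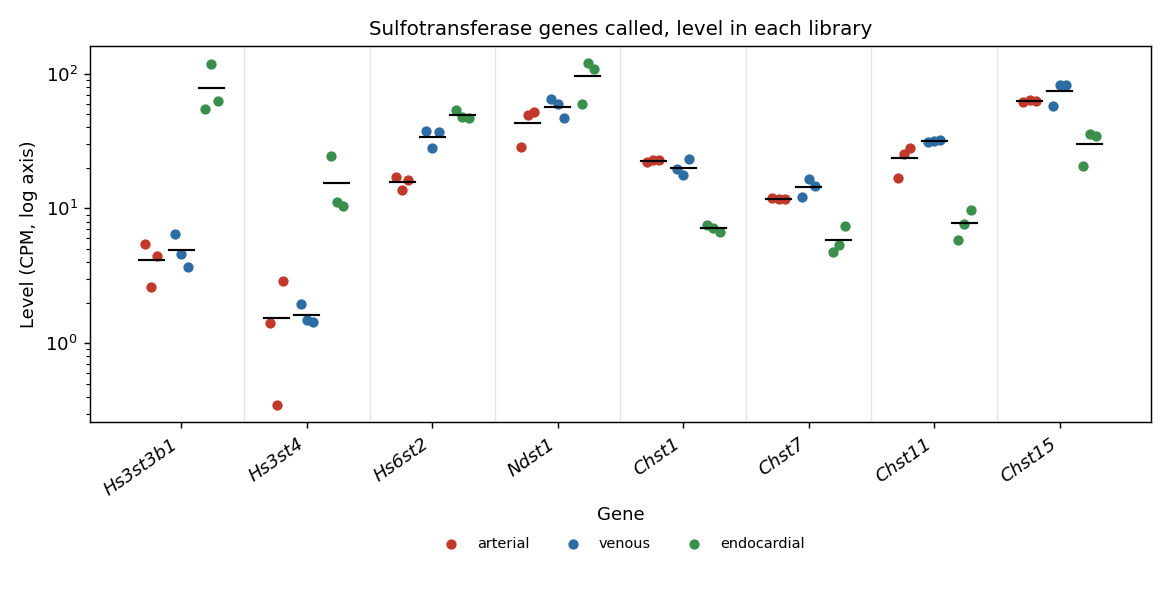
Level in CPM on a log axis (vertical) of the 8 called sulfotransferase genes in each library, with a bar at the mean of each population. Hs3st3b1, Hs3st4, Hs6st2 and Ndst1 are higher in endocardial libraries on average, and Chst1, Chst7, Chst11 and Chst15 are lower in all 3 endocardial libraries than in all coronary ones.

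Among the Chst sulfotransferases, which act outside heparan sulfate, the called genes were all lower in endocardial libraries. Of 14 genes 11 were tested, and 0 were higher and 4 lower in endocardial than in coronary libraries (36.4%, against 13.9% of all genes), whereas the median log2 fold change was 0.62, since 6 of the 11 had a value above 0 without being called, among them Chst4 and Chst5 with no count in venous libraries. Chst11 (chromosome 10, 82985498 to 83195900, plus strand) sulfates GalNAc of chondroitin. It had 5.88, 7.71 and 9.77 CPM in endocardial, 16.9, 25.4 and 28.3 in arterial and 30.9, 31.7 and 32.3 in venous libraries (3.50-fold lower, log2 -1.81 ± 0.28, adjusted p = 0.000203). Chst15 (chromosome 7, 132235780 to 132317228, minus strand), which adds a further sulfate to chondroitin that already carries one, had 20.6, 35.7 and 34.2, 61.6, 63.5 and 62.9, and 57.4, 82.6 and 82.1 CPM in endocardial, arterial and venous libraries (log2 -1.17 ± 0.21, adjusted p = 0.000849). Chst15 overlaps Gm10584 on the other strand over 1206 exonic bases.

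Chst1 (chromosome 2, 92599707 to 92615250, plus strand), a sulfotransferase of galactose in keratan sulfate and selectin ligands, had 7.56, 7.21 and 6.65 CPM in endocardial, 22, 22.9 and 22.7 in arterial and 19.6, 17.7 and 23.1 in venous libraries. The endocardial values were 2.98-fold below the coronary mean (log2 -1.58 ± 0.26, adjusted p = 0.000451). Chst7 (chromosome X, 20059560 to 20097521, plus strand), another chondroitin sulfotransferase, had 4.74, 5.33 and 7.47 CPM in endocardial, 11.9, 11.7 and 11.7 in arterial and 12.1, 16.5 and 14.6 in venous libraries. All 4 genes lay lower in each endocardial library than in each coronary library. The Chst7 difference (log2 -1.15 ± 0.33, adjusted p = 0.0243) lost its call without arterial replicate 2 (0.0563), venous replicates 2 (0.0895) or 3 (0.0716), or endocardial replicates 1 (0.0776) or 2 (0.0978).

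Chst14, which sulfates dermatan, was not called at 21.4, 24.9 and 29.7 CPM in endocardial against 7.69 to 22.2 in coronary libraries (log2 0.81, adjusted p = 0.0932), and passed without venous replicate 2 (0.03). It took 41.3% ± 2.39 of the summed Chst level per kb in endocardial, 17.6% ± 2.24 in arterial and 15.9% ± 6.09 in venous libraries. The sum was 29.3, 38.8 and 42.4 CPM per kb in endocardial, arterial and venous libraries. Chst15 was the highest Chst gene per kb in arterial (9.28 CPM per kb) and venous libraries (11), and Chst14 in endocardial ones (12.1). Chst4, which sulfates selectin ligands of lymph node vessels, had no count in venous libraries and at most 1.38 CPM elsewhere, so no fold is given. Chst12 and Chst3, both chondroitin enzymes, had 3.02 to 12.1 and 4.66 to 10.2 CPM over all libraries and were not called (adjusted p = 0.314 and 0.532).

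Against single coronary populations, several calls near the threshold depended on 1 library. St3gal1 was called against arterial libraries (adjusted p = 0.0383) and lost that call without arterial replicates 1 (0.146) or 3 (0.0963), venous replicate 3 (0.0507), or endocardial replicates 2 (0.21) or 3 (0.126). Ndst1 against arterial libraries (0.012) lost it without endocardial replicates 2 (0.0663) or 3 (0.0504), and against venous libraries, where it was not called (0.112), it passed without endocardial replicate 1 (0.0105) and without the filter (0.0251). St6galnac4 against arterial libraries lost its call without arterial replicates 2 (0.25) or 3 (0.0711) or endocardial replicate 2 (0.148). Against venous libraries (0.0217) it lost it without venous replicate 3 (0.0557) or endocardial replicate 2 (0.079). Chst7 against venous libraries (0.0293) lost it without venous replicates 1 (0.0584), 2 (0.164) or 3 (0.126) or endocardial replicates 1 (0.0752) or 2 (0.0915), and against arterial ones (0.092) passed with DESeq2 (0.0412). Some uncalled differences passed when a library was left out. Against arterial libraries these were St8sia2 without arterial replicate 1 (0.000955), St6galnac3 without arterial replicate 2 (0.0499), and B4galt1 (0.0258) and St3gal6 (0.023) without endocardial replicate 1. Against venous libraries they were St8sia2 (0.0274) and St6galnac3 (0.0482) without arterial replicate 1, and Hs3st1 without endocardial replicate 3 (0.0325). These changes of call touched none of St6gal1, St8sia1, St8sia4, St8sia6, Hs3st3b1, Hs3st4, B4galt6, Chst1, Chst11, Chst15, Galnt7 and Galnt18, which kept every call under all 14 alternatives.

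Other genes of the same pathways were followed as a list of 73, of which 71 were tested. The list was written with earlier results of these data known, so its shares are no independent support. Between endocardial and coronary libraries 13 were higher and 5 lower (25.4%, against 13.9% of all genes), counting the sort gene Emcn among the higher ones. Between arterial and venous libraries 1 was higher and 1 lower (2.82%, against 1.07%). Of 15 genes that build or edit heparan sulfate chains, 4 were higher in endocardial libraries and 1 was lower (33.3%). Sulf1 and Sulf2, extracellular enzymes that remove sulfate from the sixth carbon of glucosamine, were among the higher ones. Sulf1 had 69.3, 80.0 and 106 CPM in endocardial, 82.4, 63.3 and 87.6 in venous and 19.7, 30.2 and 14.0 in arterial libraries. Its arterial libraries alone stood low, with a log2 difference from venous ones of -1.87 ± 0.27 (adjusted p = 0.00126). Sulf2 had 27.6, 45.3 and 44.1 CPM in endocardial, 20.0, 17.0 and 20.2 in venous and 0.958, 6.91 and 5.22 in arterial libraries (log2 2.09 ± 0.41 for endocardial against coronary, adjusted p = 0.00335). The arterial fibroblast, cardiomyocyte and lymphatic marker sums were low as well, and their part was not tested. Xylt1, which starts the chains on core proteins, was lower in endocardial libraries, at 2.37 to 6.31 against 8.99 to 19.4 CPM (log2 -1.88 ± 0.41, adjusted p = 0.0041), and Ext1, a chain polymerase, was higher (log2 0.57 ± 0.17, adjusted p = 0.0293).

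Of 17 carrier proteins tested, 4 were higher in endocardial libraries, Emcn among them, and 3 were lower (41.2%, against 13.9% of all genes). Emcn was used in the sort, so its call is no result, and it counts in this share. Sdc1, a heparan sulfate proteoglycan of the cell surface, had 61.0, 151 and 98.7 CPM in endocardial, 9.51, 10.3 and 6.62 in arterial and 18, 11.4 and 13.1 in venous libraries (log2 3.21 ± 0.25, adjusted p = 1.85e-07). Gpc4, a glypican, followed the order of St8sia6, at 64.5, 61.1 and 69.8 CPM in arterial, 19.8, 16.2 and 16.2 in venous and 2.37, 4.97 and 5.97 in endocardial libraries. It differed between arterial and venous libraries (log2 1.90 ± 0.30, adjusted p = 0.00237) and between endocardial and coronary ones (log2 -2.92 ± 0.30, adjusted p = 2.49e-06). Cd34, a sialomucin that carries selectin ligands in lymph node vessels, had 171 to 242 CPM in endocardial against 356 to 633 in coronary libraries (log2 -1.27 ± 0.18, adjusted p = 8.95e-05).

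In the remaining sublists, the share called ran from 10% to 22.2%, around the 13.9% of all genes. Gmds, the first enzyme of GDP-fucose synthesis, was the 1 called of 7 and had 40.6 to 54.2 CPM in endocardial against 14.6 to 19.5 in coronary libraries (log2 1.47 ± 0.20, adjusted p = 5.93e-05). Papss2, which makes the sulfate donor, was the 1 called of 6 and had 10.7 to 13.3 CPM in endocardial against 29.5 to 38.1 in coronary libraries (log2 -1.47 ± 0.23, adjusted p = 0.000243). Gcnt2, a branching enzyme, was the 1 called of 7 core genes (log2 1.06 ± 0.23, adjusted p = 0.0044), and Siae, a sialic acid esterase, the 1 called of 10 sialic acid genes tested (log2 0.98 ± 0.30, adjusted p = 0.0386). Csgalnact1 and Dse were the 2 called of 9 chondroitin chain genes, and both were higher in endocardial libraries (log2 0.65 ± 0.15 and 1.05 ± 0.26, adjusted p = 0.00719 and 0.00995). Dse makes dermatan from chondroitin.

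Of the 20 members that were not tested, 17 stayed under 1 CPM in the mean of every population, and Hs3st5 had no count in any library. St8sia3 had 0, 0.403 and 8.24 CPM in arterial libraries, so that 1 library held nearly all its counts. Chst8 had 1.03, 0 and 1.99 CPM in arterial and at most 0.494 in the other libraries. Galnt6os and St8sia3os had counts in 1 library each.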

How the data were processed

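Expected counts per gene were deposited by the authors as 1 table, estimated with RSEM 1.2.3 against GRCm38 and Ensembl 76 after CASAVA 1.8.2 and cutadapt 1.3, per the submitters' processing notes. Libraries were amplified from 1 ng of total RNA with the Ovation Single Cell system and read as single reads, per the labels' protocols, which also name a New England Biolabs kit. For the aligner and the strand setting, the sources used here give nothing.

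Expected counts were rounded, and 17103 genes passed filterByExpr (minimum count 10) in edgeR 4.0.16 under R 4.3.3. All 9 libraries entered 1 quasi-likelihood fit with TMM scaling, 1 mean per population and no block. The value after ± beside a log2 fold change is its SE, beside a level or share its SD, and a gene was called where its p, adjusted by Benjamini-Hochberg over the whole table, was under 0.05. The common dispersion was 0.409, a coefficient of variation of 0.639. Levels per kb used GENCODE vM21 union exon length, or the longest transcript as an alternative. Alternatives were RLE and upper quartile scaling, DESeq2 1.42.0, no filter, a replicate block and leaving out each library. The fit was tested on counts simulated without a batch or an outlying library, with changes only in the better-expressed genes. That test cannot speak to low-count calls or to calls that rest on 1 library.

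The labels give each replicate number its own batch, so libraries of the same number may be paired. The main fit did not use such a pairing, and the replicate block did. Deviations from the group means correlated at 0.083 to 0.165 among libraries of batch 1, at 0.0364 to 0.146 in batch 2 and at -0.0902 to 0.0924 in batch 3. Of the libraries, 5 of 9 libraries matched their own number best.

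Members were every feature that met the symbol rule, whatever its values. The rule and the gene lists were set with earlier results of these data known. Named are every called member, the 3 highest uncalled members per kb in each class, uncalled members with an unadjusted p under 0.05 and no overlap, members whose call begins or ends under an alternative, and at most 4 called genes per pathway sublist.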

Additional observations from a re-analysis of the deposited data

How the results depend on the processing

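Of the 22 members called in any comparison, none changed sign under the 14 alternatives in a comparison where it was called. Signs in the other comparisons were not followed. Between arterial and venous libraries, the 2 members called stayed 2 with RLE scaling, upper quartile scaling and DESeq2 and became 3 without the filter on low counts and with the replicate block, which both added B4galt5. They ranged from 1 to 2 when 1 library was left out, since Hs6st2 lost its call in 4 of those fits. Over all genes, that comparison went from 183 calls (53 higher, 130 lower) to 405 with DESeq2 (173 higher, 232 lower) and 439 without the filter (179 higher, 260 lower), and from 120 to 225 when 1 library was left out, with the low value without venous replicate 1. Between venous and endocardial libraries 1753 genes were called, and 1130 to 1871 when 1 library was left out, with the low value without venous replicate 3. The cause of these shifts was not tested. Between endocardial and coronary libraries the 21 members called became 22 to 23 under other scalings, DESeq2, no filter or the replicate block, and 16 to 21 when 1 library was left out. With the replicate block, 22 members were called in that comparison (St3gal6 added), 20 between arterial and endocardial and 16 between venous and endocardial libraries, and the calls it changed are given beside the genes. With the longest transcript as length, Fut8, Hs6st2 and Chst15 moved up in their class and Fut11, Hs3st3b1, Chst14 and St3gal5 moved down, to places 2, 4, 2 and 5. The 3 libraries per population limit the precision of every value.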
